A study of Homo sapiens with 31 samples.

Results

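Nutlin-3 was added to H460 cells that also received B87 and DMKG, and their poly(A) RNA was compared with that of cells given B87 and DMKG without Nutlin-3. The comparison uses 8 of the 31 RNA sequencing libraries of the series, taken by their labelled treatment: 4 libraries of B87+DMKG+Nutlin-3 and 4 of B87+DMKG. H460 is an established cell line of a human large cell lung cancer that has lost CDKN2A. All cells were treated for 6 h. The comparator received 5 mM DMKG (dimethyl α-ketoglutarate, which enters cells as an ester and supplies α-ketoglutarate, an intermediate of the tricarboxylic acid cycle) and 1 µM B87 (BAY87-2243, an inhibitor of complex I of the respiratory chain). The other group received the same DMKG and B87 with 30 µM Nutlin-3. Untreated Control (n = 4), 30 µM Nutlin-3 without the other agents (n = 3) and B87+DMKG with 50 µM Rita (n = 4) are set beside them where a value needs a reference. Each library came from cells of 2 wells. Nothing in the labels says that replicates came from separate cultures, so p-values measure only the spread between these samples and that spread may be technical. The title of the series asks whether MDM2 inhibitors turn back the transcriptional effects of DMKG plus B87.

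MDM2 is a ubiquitin ligase that binds p53, blocks its activity and marks it for degradation. Nutlin-3 occupies the p53-binding pocket of MDM2, so that p53 accumulates and activates its target genes, among them MDM2 itself, which closes a feedback loop, the cell cycle inhibitor CDKN1A and a set of genes for apoptosis. Loss of complex I activity stops oxidation of NADH in mitochondria, and cells commonly answer mitochondrial or amino acid stress through ATF4, the transcription factor of the integrated stress response, which raises genes for amino acid supply and for stress signalling.

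The 8 libraries held 43.6 M to 61.3 M whole reads in B87+DMKG and 63.1 M to 72.1 M in B87+DMKG+Nutlin-3. The median over rows of the SD of log2 values was 0.249 in B87+DMKG and 0.164 with Nutlin-3, and correlations of log2 values between libraries were 0.964 to 0.989 within B87+DMKG and 0.986 to 0.992 within B87+DMKG+Nutlin-3. Reads from the mitochondrial genome made up 5.39%, 7.51%, 4.21% and 2.24% of B87+DMKG replicates 1 to 4, against 3.34% to 3.67% with Nutlin-3 and 1.49% to 2.15% in Control. Control replicate 3 was the lowest Control library for several stress genes, such as CHAC1 at 710.1 against 3114 to 3369 in the other Control libraries. CDKN2A was listed at 0 in all 8 libraries. Of 10 markers of lung epithelial tumour cells 9 were found and 7 could be tested. Of these 6 were higher with Nutlin-3 and 1 lower (4 and 1 without B87+DMKG replicates 1 and 2), beside 26.5% of all rows higher and 32.3% lower. The lower one was CDH2, at 135 to 168 in B87+DMKG and 61.6 to 85.9 with Nutlin-3. EPCAM, 1 of the 6, lost its call with every library scaled to the same total (0.41, limma adjusted p = 0.144) and under other settings. The sum of the 9 was 270434 to 390971 in B87+DMKG and 435867 to 518656 with Nutlin-3. The keratins KRT8, KRT18 and KRT19 were abundant, whereas SFTPC, a surfactant gene of alveolar cells, did not exceed 8.08 in either group, nor did CDH1 exceed 8.21. The 8 fibroblast markers found (5 tested, 1 higher and 1 lower) summed to 1417 to 1595 and 1587 to 1767, with FAP at 0. The leukocyte genes CD3E and MS4A1 and the endothelial genes CDH5 and CLDN5 were listed at 0 in both groups. Of the leukocyte and endothelial markers 1 each could be tested: CD14 was 47.0 to 89.9 in B87+DMKG and 208 to 264 with Nutlin-3 (log2 fold change 1.85 ± 0.28), and KDR was 26.7 to 61.5 and 6.86 to 11.5 (-1.83 ± 0.59). KDR lost its call when B87+DMKG replicates 1 and 2 were left out together (-1.52, limma adjusted p = 0.0839). The part of other cell types in the results was not tested. A level in a bulk library cannot tell fewer cells of a type apart from less RNA per cell.

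Adding Nutlin-3 to B87+DMKG moved most of the measured transcriptome. Values are the authors' normalized read counts, given per library in the order of the replicates. Log2 fold changes compare group means on the log2(normalized read count + 1) scale, which understates the change of low genes, and are given with limma's standard error. "Rose" and "fell" mean a limma p, adjusted by Benjamini-Hochberg across all 16259 tested rows, of less than 0.05. By this rule 9570 rows were called, 58.9% of those tested, with 4314 higher (26.5%) and 5256 lower (32.3%). Of these, 681 rose (4.19% of rows tested) and 2292 fell (14.1%) by at least 1 on the log2 scale. The values of the 4 libraries on each side did not overlap in 7750 rows (47.7%). With every library scaled to the same total, the median of all rows moved from -0.05 to -0.20 and the share of calls that were higher went from 45.1% to 31.9% (3037 higher and 6496 lower). Under quantile normalization the median moved to 0.08 and the share to 56.0% (5489 higher and 4312 lower). The balance of rises and falls, and small changes in either direction, therefore rest on the scaling. Without B87+DMKG replicates 1 and 2, those with the highest mitochondrial shares, 8034 rows were called, and without replicates 3 and 4 there were 9604.

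**Figure D1:**
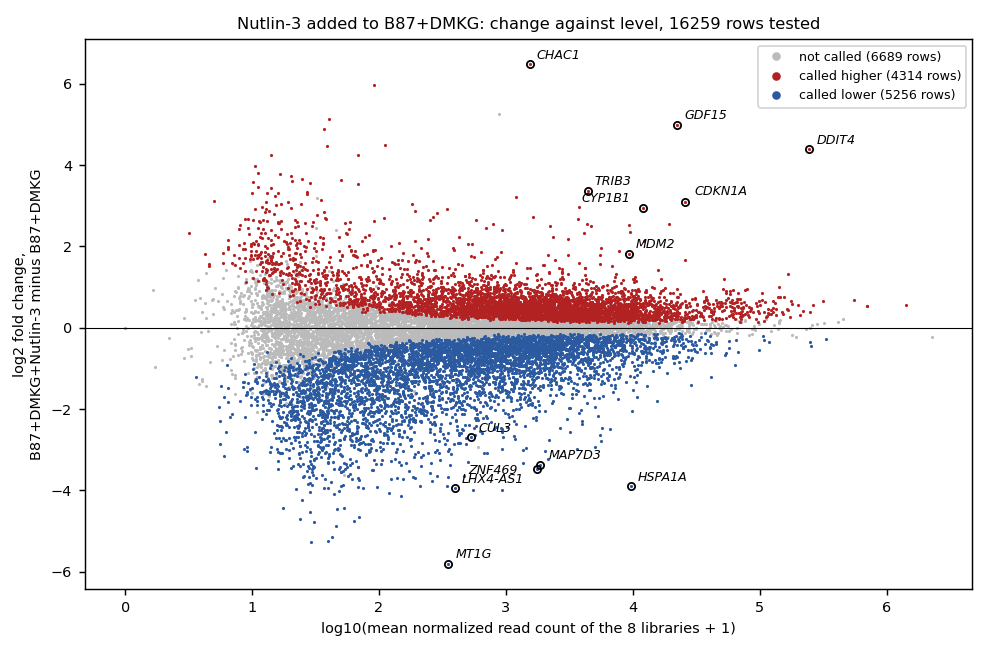
Each point is 1 of the 16259 rows tested. The x axis is log10 of the mean normalized read count of the 8 libraries plus 1, and the y axis is the log2 fold change of B87+DMKG+Nutlin-3 minus B87+DMKG. Red rows (4314) were called higher and blue rows (5256) lower. Labelled genes include CHAC1, the largest rise at 6.48, MT1G, the largest fall at -5.80 among genes named by the rule, and DDIT4, a large rise in an abundant transcript.

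The p53 feedback and growth arrest genes rose together. CDKN1A, which encodes the cyclin-dependent kinase inhibitor p21 (chromosome 6, 36644237 to 36655114 on hg19), measured 5023, 4706, 5811 and 6428 normalized read counts in B87+DMKG and 46192, 44086, 51535 and 43372 with Nutlin-3. Every library with Nutlin-3 lay far above every library without it, with group means of 5492 ± 778 and 46296 ± 3692 (SD, n = 4 each). The log2 fold change was 3.08 ± 0.10 (limma adjusted p = 9.4e-21). MDM2 (chromosome 12, 69195239 to 69239324) measured 4544, 4004, 4092 and 3683 without and 14808, 15651, 12768 and 14618 with Nutlin-3. The groups did not overlap, the log2 fold change was 1.83 ± 0.09 (limma adjusted p = 8.2e-17), and the comparator libraries lay below the Control range of 6062 to 6808. BTG2, an antiproliferative gene, went from the range 899.5 to 1337 to the range 4615 to 5382 (2.18 ± 0.10), and GADD45A, a stress sensor of the DNA damage response, went from the range 2875 to 3674 to the range 10683 to 13875 (1.90 ± 0.13). CCNG1, a cyclin that is a classical p53 target, rose as well (1.68 ± 0.15). In all, 12 of 16 tested members of this list rose and none fell (1 fell with the same total), with a median log2 fold change of 0.95 against -0.05 over all rows.

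Most p53 targets in apoptosis rose too, and the BCL2 family divided. BBC3, which encodes the BH3-only protein PUMA (chromosome 19, 47724079 to 47736023), measured 176, 224, 231 and 294 in B87+DMKG and 1443, 1203, 1585 and 1199.6 with Nutlin-3. No library of either group overlapped the other, and the log2 fold change was 2.56 ± 0.18 (limma adjusted p = 6.4e-13). PMAIP1, which encodes NOXA, an antagonist of MCL1, measured 867, 691, 530.1 and 453 and 1647, 1544, 1551 and 1847. It rose by 1.41 ± 0.15 but only back to the Control range of 1315 to 2290.0. AEN, an apoptosis-enhancing nuclease (1.55 ± 0.15), and the decoy TRAIL receptors TNFRSF10C (1.80 ± 0.36) and TNFRSF10D (1.21 ± 0.24) were higher. Of 14 tested apoptosis targets 10 rose and 1 fell, with a median of 0.58. In the BCL2 family list, which shares BBC3 and PMAIP1 with the previous list, 9 of 13 members rose and 3 fell. With library totals made equal 6 rose and 4 fell. MCL1, an anti-apoptotic member, fell from the range 18686 to 20876 to the range 8882 to 10489 (-1.06 ± 0.16). The BH3-only genes BIK (0 to 14.1 against 20.5 to 26.2, 2.24 ± 0.60) and BMF (0 to 17.8 against 14.1 to 27.9, 2.07 ± 0.53) were low. Both lost their calls without B87+DMKG replicates 1 and 2 (0.75 and 0.64, limma adjusted p = 0.255 and 0.211), which were the libraries with the lowest values. Without those libraries 4 members of the BCL2 family list rose and 3 fell.

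Among caspases and inhibitors of apoptosis, 7 of 17 rose and 5 fell, beside 26.5% of all rows higher and 32.3% lower. The list median of 0.14 changed sign with the same total in every library. CASP9, the initiator caspase of the mitochondrial pathway, went from the range 560.5 to 656 to the range 1159 to 1219 (0.94 ± 0.09). The death receptor caspase CASP10 (0.57 ± 0.15) and the ubiquitin ligase BIRC2 (0.85 ± 0.16) were also higher, and XIAP, a direct caspase inhibitor, fell (-1.03 ± 0.23). PARP1, the poly(ADP-ribose) polymerase at the head of the death pathway called parthanatos, measured 16205, 15754, 16645 and 16020.3 in B87+DMKG and 9777, 9133, 8830.1 and 8669 with Nutlin-3. Its log2 fold change of -0.83 ± 0.06 was larger than the spread in either group (limma adjusted p = 1.5e-13). Of the 9 parthanatos genes tested PARP1 fell, 5 rose and 3 did not pass the test. Among those that rose were ADPRHL2, a hydrolase that removes ADP-ribose, and MIF, the nuclease partner of that pathway, at 1.25 ± 0.17 and 0.67 ± 0.13. With library totals made equal 4 rose and 2 fell.

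The p53 targets in repair and metabolism held the largest p53-linked rises. GDF15, a secreted stress cytokine that both p53 and ATF4 are known to induce (chromosome 19, 18496968 to 18499987), measured 1191, 1025, 1587 and 1761 in B87+DMKG and 45549, 41383, 48793 and 38929 with Nutlin-3. The log2 fold change was 5.00 ± 0.18 (limma adjusted p = 2.2e-19), and every library with Nutlin-3 was above the Control range of 1451 to 2649. SESN2, a sestrin that restrains mTORC1 when leucine is short and is likewise known as a target of both factors, measured 170.0, 271, 234 and 259 and 1945, 2366, 2355 and 2025 (3.23 ± 0.20). SESN1, the sestrin tied more closely to p53, went from the range 70.7 to 153 to the range 291 to 416 (1.76 ± 0.16). TIGAR, a fructose bisphosphatase that slows glycolysis, rose by 1.33 ± 0.08 and TRIAP1, a mitochondrial survival gene, by 1.13 ± 0.14. In this list 11 of 18 members rose and 2 fell, with a median of 0.65.

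**Figure D2:**
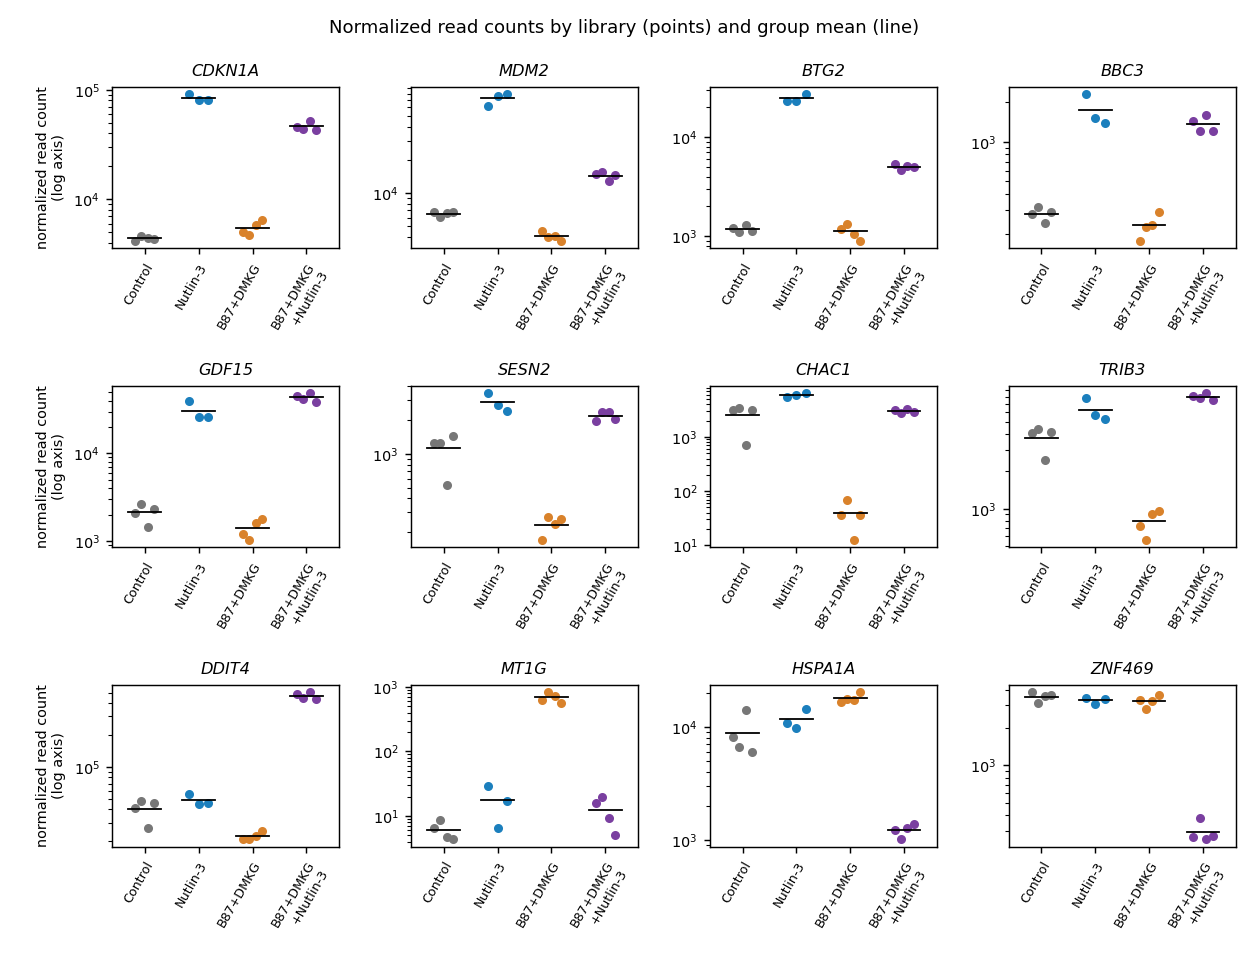
Normalized read counts (log axes, a different range in each panel) of 12 genes in Control, Nutlin-3, B87+DMKG and B87+DMKG+Nutlin-3, with 1 point per library and a line at the group mean. CDKN1A, MDM2, BTG2, BBC3, GDF15, SESN2, CHAC1, TRIB3 and DDIT4 were higher in all 4 libraries with Nutlin-3 than in all 4 B87+DMKG libraries. MT1G, HSPA1A and ZNF469 were lower in all 4.

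The same inhibitor at the same dose without B87 and DMKG, compared with Control, shares no library with this comparison. It moved 6359 rows (39.1% of those tested), of which 3000 were higher (18.5%) and 3359 lower (20.7%) (the share higher went from 47.2% to 30.5% with the same total). The difference between both effects of Nutlin-3 was called in 9259 rows (56.9%), 4285 higher (26.4%) and 4974 lower (30.6%) with B87+DMKG, which became 5155 higher and 4204 lower under quantile normalization. Of the 4314 rows that rose on B87+DMKG, 642 (14.9%, and 21.4% of the 3000) also rose with Nutlin-3 without it, and 1326 (30.7%) fell there. Of the 5256 that fell, 799 (15.2%, and 23.8% of the 3359) also fell there and 1224 (23.3%) rose. Across the 16259 rows the 2 sets of log2 fold changes had Pearson's r = -0.16 and Spearman's rho = -0.20, given as a description across genes, which are not independent replicates.

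Most p53 feedback and arrest genes responded less on B87+DMKG than without it. BTG2 was 23208, 23305 and 27224 in the 3 libraries of Nutlin-3 against 1112 to 1297 in Control, a log2 fold change of 4.37 ± 0.11, and the effect on B87+DMKG differed from it by -2.19 ± 0.14 on the log2 scale (limma adjusted p of the difference = 5.1e-13). MDM2 was 61919, 76151 and 79678 with Nutlin-3 without B87+DMKG, and its effects of 3.47 ± 0.09 without and 1.83 ± 0.09 with B87+DMKG differed (-1.64 ± 0.13, adjusted p = 1.4e-11). CDKN1A (4.25 ± 0.11 without, difference -1.17 ± 0.14) and GADD45A (3.31 ± 0.14 without, difference -1.41 ± 0.19) showed the same order. TP53INP1, a p53 target of the stress response, showed a wide gap: it rose by 3.75 ± 0.19 without B87+DMKG and by 0.70 ± 0.17 with it (difference -3.05 ± 0.26), and its call on B87+DMKG was lost without B87+DMKG replicates 1 and 2 (0.38, adjusted p = 0.0916). The effect was called lower (less positive or more negative) on B87+DMKG in 11 of 16 feedback and arrest genes and higher in 3. For BBC3 (2.58 ± 0.20 without, difference -0.02 ± 0.27, adjusted p = 0.95) and TIGAR (1.32 ± 0.08 without, difference 0.01 ± 0.11, adjusted p = 0.959) no difference was called, and the standard errors set how small a difference could have been seen. The effect was higher on B87+DMKG in CCNG1 (difference 2.03 ± 0.21), AEN (difference 1.32 ± 0.23), GDF15 (difference 1.16 ± 0.27) and SESN2 (difference 1.79 ± 0.30). For CCNG1 the difference exceeded its rise on B87+DMKG, so Nutlin-3 without B87+DMKG did not raise CCNG1.

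**Figure D3:**
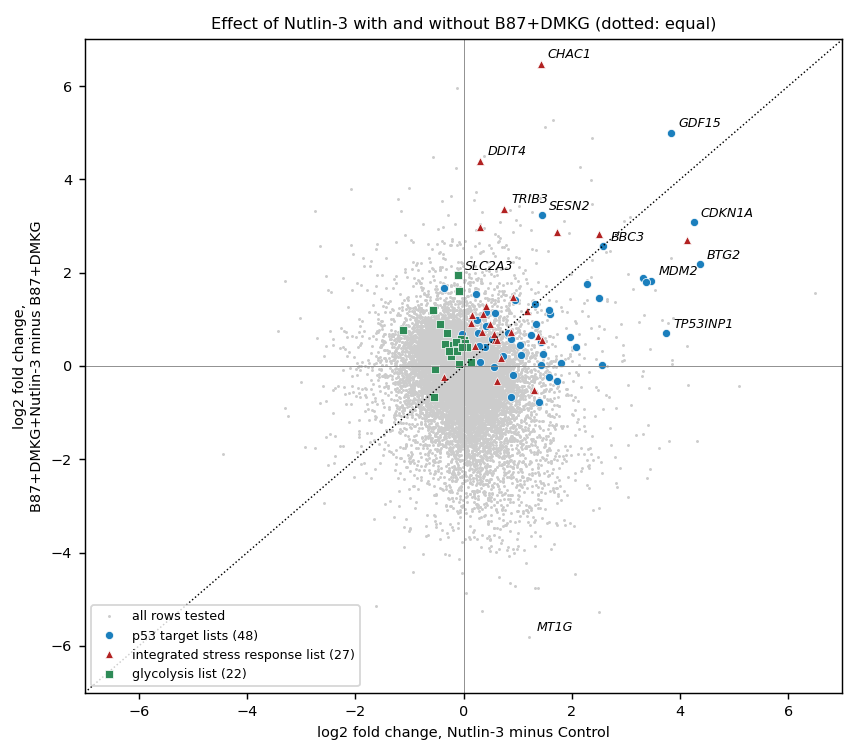
Each point is 1 row. The x axis is the log2 fold change of Nutlin-3 minus Control, the y axis that of B87+DMKG+Nutlin-3 minus B87+DMKG, and on the dotted line both are equal. Circles are the 48 tested members of the p53 target lists, triangles the 27 of the integrated stress response list and squares the 22 of the glycolysis list. BTG2, MDM2, CDKN1A and TP53INP1 lie below the line, and CHAC1, DDIT4, TRIB3 and SESN2 above it.

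Integrated stress response genes rose, among them the largest rise of a named gene. CHAC1, which encodes a glutathione-degrading enzyme induced through ATF4 (chromosome 15, 41245636 to 41248717), measured 36.9, 69.3, 12.5 and 36.3 normalized read counts in B87+DMKG and 3109.5, 2813, 3330.5 and 2908 with Nutlin-3. The log2 fold change was 6.48 ± 0.36 (limma adjusted p = 1.9e-15). The comparator stood far below the Control range of 710.1 to 3369, and the libraries with Nutlin-3 lay within it. TRIB3, a pseudokinase that feeds back on ATF4, measured 729, 560.0, 909.7 and 963 and 8049, 7863, 8559 and 7562 (3.37 ± 0.17). DDIT4, an inhibitor of mTORC1 also known as REDD1 (chromosome 10, 74033677 to 74035797), measured 20995, 20896, 22544 and 25196 in B87+DMKG and 490989, 447353, 508204 and 439327 with Nutlin-3 (4.40 ± 0.12, limma adjusted p = 5.3e-22). All 4 values were above every Control (26528 to 48246) and Nutlin-3 (45031 to 56063) library. Without B87+DMKG, Nutlin-3 changed DDIT4 by 0.31 ± 0.13, which did not pass the test (adjusted p = 0.0636), and the difference of the effects was 4.09 ± 0.18 (adjusted p = 1.7e-16).

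DDIT3, the transcription factor CHOP, measured 43.6, 46.7, 40.1 and 50.5 and 324, 327, 369.5 and 332 (2.88 ± 0.25). ASNS, asparagine synthetase, went from 2522, 1835, 2464 and 2187 to 6194, 6089, 6459.5 and 6163 (1.48 ± 0.12), back near the Control values of 7119, 7653, 4558 and 7277. ATF4 mRNA moved less, from the range 28312 to 31477 to the range 40814 to 46686 (0.55 ± 0.07). STC2, a secreted glycoprotein of the stress response, rose by 2.98 ± 0.19. Of 27 tested members of the list 23 rose and 1 fell, with a median of 0.90. Nutlin-3 without B87+DMKG raised 19 and lowered none (median 0.62), and the effect was called higher on B87+DMKG in 12 members and lower in 5. Set beside Control, B87+DMKG alone had 24 of 27 members lower and 1 higher. In that comparison 9922 rows (61.0%) were called, 30.2% higher and 30.8% lower. B87+DMKG+Nutlin-3 had 9 members lower and 8 higher against Control, with 9434 rows (58.0%) called, 28.3% higher and 29.7% lower (the share of these calls that were higher was 48.8%, 33.8% with the same total and 55.7% under quantile normalization). These comparisons share libraries with the one described here.

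The promoters of CHAC1 and ASNS are shown because these ATF4 targets rose and each holds the letters TGATGNAA of the C/EBP-ATF response element, to which ATF4 binds with C/EBP partners. They are the 250 bases before the transcription start from RefSeq (GRCh38.p14, a build other than that of the table), 5′ to 3′ on the gene's strand, with the match in capitals; both genes were chosen after their values were seen, and for ASNS the window with the match was taken of 2. Their windows are chr15:40953221-40953470 (plus strand) and chr7:97872409-97872658 (minus strand).
CHAC1: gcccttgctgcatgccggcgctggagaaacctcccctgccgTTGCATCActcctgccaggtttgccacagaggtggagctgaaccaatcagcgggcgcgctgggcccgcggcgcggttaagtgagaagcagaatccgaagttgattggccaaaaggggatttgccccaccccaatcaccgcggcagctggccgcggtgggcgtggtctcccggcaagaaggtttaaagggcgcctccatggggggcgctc
ASNS: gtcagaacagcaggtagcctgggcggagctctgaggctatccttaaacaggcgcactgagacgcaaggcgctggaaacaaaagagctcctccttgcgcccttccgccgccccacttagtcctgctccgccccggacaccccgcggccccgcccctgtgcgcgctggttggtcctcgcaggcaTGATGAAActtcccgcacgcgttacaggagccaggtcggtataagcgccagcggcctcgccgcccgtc
The match of CHAC1 starts 209 bases before the start and reads on the opposite strand, and that of ASNS starts 68 bases before it on the same strand. Searched on both strands, the letters occurred in 1104 of 35116 promoter windows (3.14%) and in 3.89% of 27305 genes. Of the 29 genes of the list, 23 had a window and 5 of these (ASNS, CEBPG, CHAC1, FGF21 and SLC1A5) held the letters. A match is a description of the sequence.

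Cytosolic aminoacyl-tRNA synthetases, many of them ATF4 targets that charge tRNAs, rose by small amounts: 14 of 20 were higher and 1 lower (median 0.28; 10 and 2 with the same total). SARS (0.87 ± 0.08), GARS (0.61 ± 0.08), CARS (0.59 ± 0.08), MARS (0.57 ± 0.08) and QARS (0.56 ± 0.08) led them. Endoplasmic reticulum unfolded protein genes moved unevenly, with 12 of 20 higher and 4 lower (8 and 5 with the same total; 2 were lower with only the groups compared). XBP1, the transcription factor spliced by IRE1, measured 3194, 2761, 3246 and 3314 in B87+DMKG and 16829, 15941, 16918 and 14577 with Nutlin-3 (2.36 ± 0.12). The folding factor gene SDF2L1 (1.10 ± 0.21), the chaperone DNAJB9 (0.89 ± 0.11) and HERPUD1, a degradation factor (0.79 ± 0.12), rose, while DNAJC3, the co-chaperone that inhibits PERK, fell (-1.22 ± 0.13). DNAJC3 rose with Nutlin-3 without B87+DMKG (0.81 ± 0.14), and the difference was -2.04 ± 0.19 (adjusted p = 5.7e-10). Nutlin-3 without B87+DMKG raised 18 of these 20 genes, and the effect on B87+DMKG was called lower in 14.

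Hypoxia response, glycolysis and mitochondrial metabolism genes rose on B87+DMKG. Of 24 tested hypoxia genes 17 rose and none fell (13 and 2 with the same total), a median of 0.53. Of all rows 26.5% rose and 32.3% fell. This list shares DDIT4 with the integrated stress response list, so their counts are not independent. ADM, the peptide adrenomedullin, measured 714, 899.9, 776 and 912 in B87+DMKG and 4038, 3601, 4239.5 and 3594 with Nutlin-3 (2.23 ± 0.09). BHLHE40, a transcriptional repressor of the clock and hypoxia response, went from the range 5617 to 5701 to the range 30853 to 34994 (2.54 ± 0.10). ANKRD37 (2.24 ± 0.24) and MIR210HG, from which the hypoxia-induced miR-210 is processed (2.50 ± 0.68), were low but rose. VEGFA, the angiogenic growth factor, rose from the range 2111 to 2933 to the range 3909 to 4137 (0.69 ± 0.11) and with Nutlin-3 lay within the Control range of 3300.0 to 5228. CA9, a carbonic anhydrase that marks hypoxic tumours, was at 0 to 4 in B87+DMKG and 3.69 to 5.75 with Nutlin-3 and did not pass the test (1.34 ± 0.68, adjusted p = 0.0901), though it did without B87+DMKG replicate 2 (1.71, adjusted p = 0.0418). Without B87+DMKG, Nutlin-3 raised 4 hypoxia genes and lowered 3, beside 18.5% of all rows higher and 20.7% lower. The effect was called higher on B87+DMKG in 13 and lower in 3, beside 26.4% and 30.6% of all rows.

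Of 22 glycolysis and glucose transport genes 17 rose and 1 fell, with a median of 0.48 (13 and 1, median 0.20, under quantile normalization). SLC2A1, the basal glucose transporter GLUT1, measured 8694, 8494, 11029.8 and 12468 and 20733, 23876, 24419 and 23180.4 (1.20 ± 0.10), and SLC2A3, the high-affinity transporter GLUT3, measured 2472, 2111, 2135 and 2493 and 8256, 10313, 7868 and 9287 (1.95 ± 0.10). Neither pair of groups overlapped. The hexokinase HK2 (0.59 ± 0.09), the aldolase ALDOC (1.61 ± 0.12) and both lactate dehydrogenase genes, LDHA (0.49 ± 0.07) and LDHB (0.90 ± 0.09), were higher. LDHA lost its call under quantile normalization (0.13, adjusted p = 0.116). SLC16A3, the lactate exporter, rose from 7403, 6414, 10432 and 13790.1 to 16268, 14876, 16523 and 14362 (0.77 ± 0.17), and its call was lost without B87+DMKG replicates 1 and 2 (0.37, adjusted p = 0.0644). Nutlin-3 without B87+DMKG raised none of the 22 and lowered 8, beside 18.5% of all rows higher and 20.7% lower. The effect on B87+DMKG was called higher in 18 and lower in none, beside 26.4% and 30.6% of all rows. TXNIP, an arrestin-like gene that follows glucose, was 625, 951, 702 and 587 and 664, 670.3, 588 and 644 and did not pass the test (-0.13 ± 0.16, adjusted p = 0.487). Its relative ARRDC3 rose (2.51 ± 0.12). The glucose-sensing transcription factors MLXIP, or MondoA (-1.58 ± 0.17), and MLXIPL, or ChREBP (-1.94 ± 0.22), fell.

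Tricarboxylic acid cycle and glutamine genes rose in 21 of 27 cases and fell in 2 (15 and 4 with the same total), with a median of 0.37. SUCLG1, a subunit of succinate-CoA ligase, went from the range 4499.7 to 5802 to the range 10834 to 11505 (1.11 ± 0.10). Malate dehydrogenase MDH1 (0.93 ± 0.09), isocitrate dehydrogenase IDH2 (0.80 ± 0.11) and the complex II subunit SDHD (0.76 ± 0.08) rose, and malic enzyme ME2 fell (-0.70 ± 0.08). Nuclear genes of complex I, the target of B87, rose in 21 of 31 cases and fell in 1 (15 and 1 with the same total), such as the subunits NDUFB2 (1.07 ± 0.13), NDUFA2 (0.97 ± 0.12) and NDUFB11 (0.96 ± 0.15). Without B87+DMKG, Nutlin-3 raised 3 and lowered 11 of the tricarboxylic acid cycle genes, and it raised 13 and lowered 4 of the complex I genes. Of all rows it raised 18.5% and lowered 20.7%. Cholesterol synthesis genes rose in 14 of 18 cases and fell in 2, and without B87+DMKG 9 rose and 1 fell. Among them were the demethylation enzyme MSMO1, from the range 1238 to 1848 to the range 3548 to 4179 (1.37 ± 0.13) and mevalonate kinase MVK (1.08 ± 0.13).

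**Figure D4:**
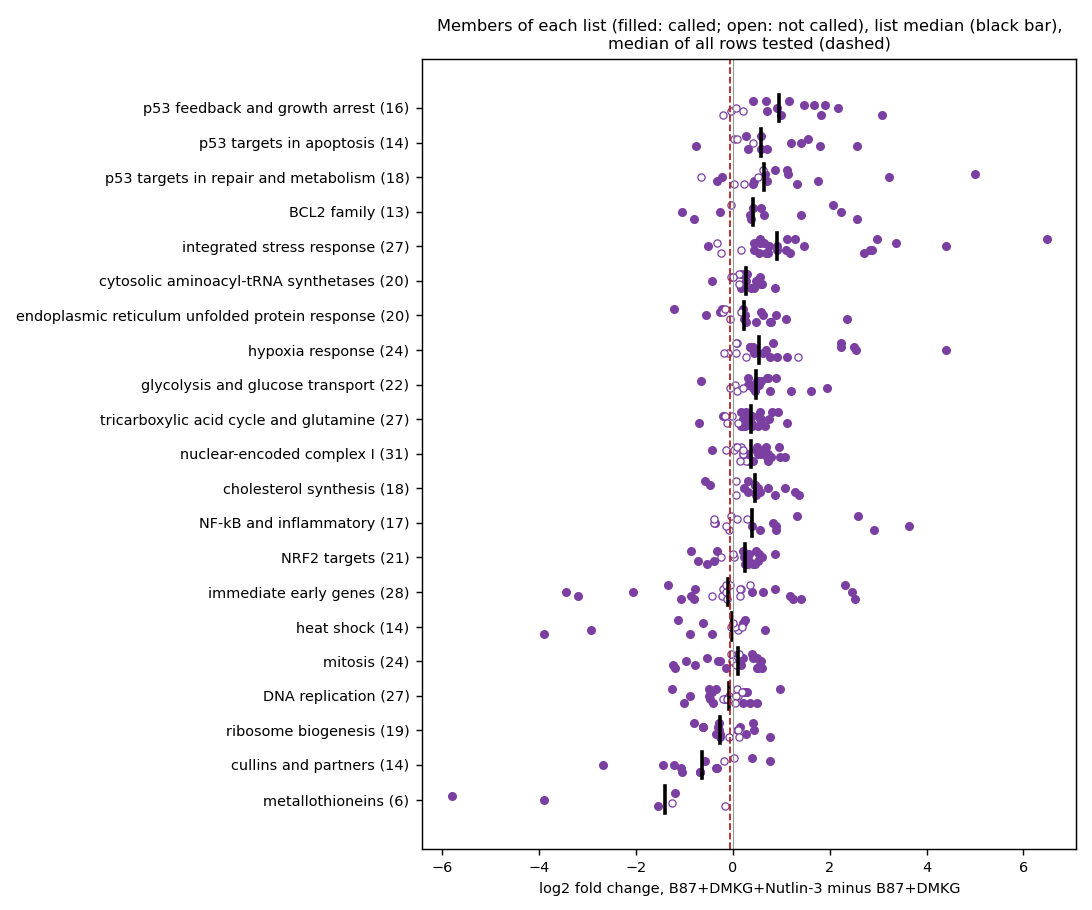
The x axis is the log2 fold change of B87+DMKG+Nutlin-3 minus B87+DMKG for the members of 21 gene lists, with the number tested in parentheses. Filled points were called, open points were not, the black bar is the list median and the dashed line the median of all rows (-0.05). The medians run from 0.95 for p53 feedback and growth arrest genes and 0.90 for integrated stress response genes to -1.40 for metallothioneins.

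Several of the largest rises lay outside these lists. CYP1A1 and CYP1B1, the cytochromes that the aryl hydrocarbon receptor induces, rose by 4.26 ± 0.34 and 2.96 ± 0.15. CYP1A1 measured 4.47, 10.7, 7.13 and 3.03 in B87+DMKG and 120.1, 149.5, 119 and 127 with Nutlin-3, and CYP1B1 measured 2438, 2159, 2639 and 3678 and 19699.5, 26026, 15362 and 23587. CYP1A1 also rose with Nutlin-3 without B87+DMKG (2.15 ± 0.37), whereas CYP1B1 did not pass the test there (0.37 ± 0.16, adjusted p = 0.0732). ELF3, an epithelial ETS factor, measured 7.83, 2.67, 12.5 and 17.2 and 217, 219, 225 and 186 (4.49 ± 0.46), and all 4 libraries with Nutlin-3 lay above the Control range of 28.6 to 65.2. SAMD11 (3.04 ± 0.32), ATOH8, a basic helix-loop-helix factor (2.66 ± 0.21), and the long noncoding RNA gene LINC01433 (3.54 ± 0.68) rose as well. Among NF-kB and inflammatory genes 9 of 17 rose and 1 fell: the cytokines IL1B (2.24 to 10.7 in B87+DMKG and 78.9 to 114 with Nutlin-3, 3.64 ± 0.39), IL1A (66.0 to 119 in B87+DMKG and 585 to 626 with Nutlin-3, 2.91 ± 0.25) and TNF (6.71 to 23.2 in B87+DMKG and 69.0 to 119 with Nutlin-3, 2.58 ± 0.51), the NF-kB subunit RELB (1.33 ± 0.17) and the chemokine CXCL2 (0.90 ± 0.09).

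B87+DMKG had raised immediate early genes in 23 of 28 cases against Control. When Nutlin-3 was added 9 rose, 8 fell and 11 did not pass the test. These shares are near those of all rows, 26.5% higher and 32.3% lower. The median, -0.09, changed sign when single libraries were left out (-0.11 to 0.03). EGR1, a zinc finger factor of the growth response (chromosome 5, 137801169 to 137805189), measured 35769, 37022, 29010.4 and 32179.8 in B87+DMKG and 19476, 18470.2, 20566 and 17878 with Nutlin-3. It fell (-0.81 ± 0.20, limma adjusted p = 8.2e-04), with no overlap, and all 8 libraries remained far above the Control range of 214 to 470.3. EGR2 fell from the range 44.7 to 82.8 to the range 3.43 to 9.86 (-3.19 ± 0.37) and EGR3 from the range 20.2 to 62.6 to the range 0 to 4.93 (-3.45 ± 0.81), into the Control ranges of 4.37 to 14.9 and 0 to 4.37 or close to them. FOSB fell (-1.07 ± 0.30), FOS did not pass the test (3842, 3965, 4241 and 4429 against 3893, 3942, 4242 and 3657; -0.07 ± 0.20, adjusted p = 0.794), and JUN rose (0.86 ± 0.11). Rises were largest in IER3, an apoptosis modulator (2.52 ± 0.13), ATF3, a stress-induced factor of the ATF4 pathway (2.46 ± 0.25), and KLF2 (2.32 ± 0.29). MYC measured 18434 to 21559 and 20905 to 22785 and was not called (0.15 ± 0.07, adjusted p = 0.0566). It was called without B87+DMKG replicate 3 (0.19, adjusted p = 0.0253) or 4 (0.17, 0.0445), without B87+DMKG+Nutlin-3 replicate 1 (0.18, 0.0434) and with edgeR (0.16, 0.0472).

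The EGR1 promoter is shown because EGR1 stayed far above Control in all 8 libraries. It is given as the 250 bases before the start (RefSeq, GRCh38.p14, chr5:138465229-138465478, plus strand), with its CArG boxes, the sites of serum response factor, in capitals.
EGR1: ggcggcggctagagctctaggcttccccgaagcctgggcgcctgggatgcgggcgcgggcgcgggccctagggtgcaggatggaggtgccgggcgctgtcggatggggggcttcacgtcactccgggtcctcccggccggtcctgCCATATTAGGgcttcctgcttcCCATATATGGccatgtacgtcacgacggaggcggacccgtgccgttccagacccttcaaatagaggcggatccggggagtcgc
The 2 matches start 105 and 83 bases before the start, and the one farther away overlaps the single match of the serum response element core. The window held 1 match of the EGR site (GCGNGGGCG) and none of the cAMP response element (TGACGTCA) or the AP-1 site (TGANTCA). Of 35116 windows, 1.16% held a CArG box, 0.0313% the serum response element core, 8.42% the EGR site, 1.65% the cAMP response element and 6.57% the AP-1 site, searched on both strands. Of the 28 immediate early genes 20 had a window, and 3 of these (EGR1, EGR2 and SRF) held a CArG box.

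Genes that restrain MAPK signalling rose in 6 of 15 cases and fell in 6 (4 and 6 with the same total, 8 and 5 under quantile normalization). Of all rows 26.5% were called higher and 32.3% lower. ERRFI1, an inhibitor of the EGF receptor, rose (1.09 ± 0.19), while the ERK phosphatase DUSP7 (-1.43 ± 0.10) and the Ras inhibitors SPRED1 (-0.99 ± 0.15) and SPRED3 (-1.27 ± 0.26) fell. Of 10 EGF receptor ligands 3 rose, near the share of all rows, and 2 fell. These counts became 5 and 1 under quantile normalization and 1 and 2 without B87+DMKG replicates 3 and 4. TGFA, 1 of the ligands that rose (0.74 ± 0.30, adjusted p = 0.0343), lost its call with the same total (0.60, limma adjusted p = 0.0813), with no filter on low values (0.0730) and without any 1 of B87+DMKG replicates 1, 3 and 4 or B87+DMKG+Nutlin-3 replicates 2, 3 and 4 (0.67 to 0.73, limma adjusted p = 0.0603 to 0.0834). HBEGF rose (0.69 ± 0.16) and EREG fell with overlapping groups (-1.16 ± 0.28). AREG (-0.88 ± 0.31) lost its call without B87+DMKG replicate 2, where it was highest (-0.56, adjusted p = 0.122), without B87+DMKG+Nutlin-3 replicate 3 (-0.73, adjusted p = 0.0663), without B87+DMKG replicates 1 and 2 (-0.57, 0.185), under quantile normalization (-0.40, 0.275) and with only the groups compared (-0.88, 0.0518).

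Metallothioneins, small cysteine-rich proteins that bind zinc and copper, fell back. MT1G (chromosome 16, 56700648 to 56701977) measured 615, 827, 735 and 571 in B87+DMKG and 16.1, 19.7, 9.24 and 5.14 with Nutlin-3, against 6.41, 8.53, 4.77 and 4.37 in Control. The fall was the largest among the genes named by the rule (-5.80 ± 0.77, limma adjusted p = 2.2e-07). MT1F measured 343, 493, 392 and 333 and 32.3, 22.2, 22.2 and 24.9 (-3.89 ± 0.55), MT2A 14625, 14006, 16958 and 14737 and 5498, 5007, 5433 and 4772 (-1.54 ± 0.23), and MT1X 1238, 1327, 1402 and 971 and 485, 528, 609 and 507 (-1.20 ± 0.13). Each pair of groups was separate, with Control ranges of 10.9 to 40.5, 3334 to 4346 and 479 to 540.2. With Nutlin-3, MT2A lay above its Control range, while MT1F lay within it. MT1A (-0.16 ± 0.11) and MT1E (-1.26 ± 0.60) did not pass the test, so 4 of 6 tested members fell and none rose (6 fell with the same total, 5 with edgeR and 5 with DESeq2). These genes are near-identical copies that can share reads, so the split among them is uncertain. The 250 bases before the start of MT2A (chr16:56608334-56608583, plus strand) and MT1X (chr16:56682220-56682469, plus strand) follow (RefSeq, GRCh38.p14), because they are the members that fell and have a window in the table, with the core letters TGCACNC or TGCGCNC of the metal response element in capitals on either strand.
MT2A: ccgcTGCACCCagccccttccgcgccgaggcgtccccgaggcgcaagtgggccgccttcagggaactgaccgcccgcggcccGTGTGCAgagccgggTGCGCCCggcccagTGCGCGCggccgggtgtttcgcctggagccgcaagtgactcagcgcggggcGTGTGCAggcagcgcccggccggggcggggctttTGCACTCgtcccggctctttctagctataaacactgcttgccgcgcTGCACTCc
MT1X: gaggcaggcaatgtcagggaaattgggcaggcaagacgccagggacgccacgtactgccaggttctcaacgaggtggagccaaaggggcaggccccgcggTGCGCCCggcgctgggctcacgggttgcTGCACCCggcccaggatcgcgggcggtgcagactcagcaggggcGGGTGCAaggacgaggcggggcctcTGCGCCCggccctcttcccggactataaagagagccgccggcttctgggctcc
MT2A held 7 matches and MT1X 4. The letters are common, in 24.8% of all windows, but 4 or more matches occurred in 130 windows (0.370%). Of the 11 genes of the list 4 had a window, and all 4 (MT1B, MT1H, MT1X and MT2A) held the letters. These genes were chosen for printing after their values were seen.

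Heat shock genes fell in 6 of 14 cases and rose in 3 (6 and 1 with the same total), beside 32.3% of all rows lower and 26.5% higher. HSPA1A, the inducible HSP70, measured 16598, 17826, 17507 and 20372 in B87+DMKG and 1229, 1010.4, 1271 and 1369 with Nutlin-3 (-3.89 ± 0.22), below the Control range of 6056 to 14185. Its near-identical neighbour HSPA1B fell too (-2.93 ± 0.23), and reads of the pair can be split between them. The HSP40 genes DNAJB1 (-1.14 ± 0.10) and DNAJB4 (-0.88 ± 0.12) fell, and HSPD1, the mitochondrial chaperonin, rose (0.66 ± 0.06). NRF2 targets of the oxidative stress response rose in 13 of 21 cases and fell in 5 (8 and 5 with the same total, 5 and 5 under quantile normalization). The aldo-keto reductases AKR1C1 (0.60 ± 0.07) and AKR1C2 (0.86 ± 0.10), a pair of similar sequence, were higher. HMOX1, heme oxygenase, was lower (-0.72 ± 0.13), as was the transporter ABCC2 (-0.86 ± 0.13).

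Some genes whose B87+DMKG values overlapped Control fell when Nutlin-3 was added. ZNF469, a zinc finger gene (chromosome 16, 88493879 to 88507165), measured 3294, 2819, 3241 and 3627 in B87+DMKG and 270.4, 380.3, 259 and 273 with Nutlin-3 (-3.46 ± 0.12, limma adjusted p = 4.2e-20). Its Control values were 3123 to 3824 and its values with Nutlin-3 without B87+DMKG were 3073 to 3445. The difference of the Nutlin-3 effects was -3.37 ± 0.17 (adjusted p = 2.6e-15). MAP7D3, a microtubule-associated protein gene, measured 3938, 4086, 3103 and 2409 and 305, 351, 329.8 and 299 (-3.37 ± 0.14), and its difference of effects was -3.82 ± 0.21. Its Control range was 3209 to 3315. CUL3, the scaffold of a ubiquitin ligase family (chromosome 2, 225334867 to 225450114), was already low in B87+DMKG at 1033, 943, 979 and 717 against 8397 to 9439 in Control, and fell further to 155, 151, 127 and 129 (-2.69 ± 0.10, limma adjusted p = 7.8e-19). Of 14 cullins and partners 10 fell and 2 rose, beside 32.3% of all rows lower and 26.5% higher. Those that fell included the scaffolds CUL5 (-1.05 ± 0.19), CUL7 (-1.08 ± 0.11) and CUL9 (-1.44 ± 0.13) and the adaptor KLHL21 (-1.22 ± 0.11).

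Other large falls were in transcripts that B87+DMKG had raised. MALAT1, a nuclear-retained noncoding RNA, measured 23333, 20771, 16396 and 15214 and 8815, 7524, 5205 and 6626 (-1.43 ± 0.34) against 857 to 1628 in Control, and KCNQ1OT1, an imprinted antisense RNA, went from the range 576 to 870.4 to the range 55.4 to 143 (-2.83 ± 0.40). Among 5 nuclear-retained RNAs 2 fell and 2 rose, beside 32.3% of all rows lower and 26.5% higher. The rises were the snoRNA hosts SNHG1 (0.92 ± 0.14) and GAS5 (0.70 ± 0.10). The antisense genes LHX4-AS1 (-3.95 ± 0.25) and ASMTL-AS1 (-3.64 ± 0.71), the G protein subunit gene GNB3 (-3.51 ± 0.36), FAM229A (-3.37 ± 0.30) and the miRNA gene row MIR3916 (-3.33 ± 0.45) fell. The counting is not stated to use strand, so antisense reads cannot be told apart from those of the partner gene. HERC2P7 (-3.33 ± 0.27) and GOLGA8R (-3.36 ± 1.22) belong to families of near-identical copies and are uncertain. GOLGA8R was listed at 0 in 1 library with Nutlin-3 and lost its call without that library, B87+DMKG+Nutlin-3 replicate 3 (-2.04, adjusted p = 0.140), and without B87+DMKG replicates 1 and 2 (0.0687) or 3 and 4 (0.0630).

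Calls also differed with gene structure, a description made after the values were seen. Among rows without a gene symbol, 49.3% of 2431 fell and 8.80% rose. Such rows outside the mitochondrial genome held 1.06% to 1.09% of reads in B87+DMKG, 0.755% to 0.791% with Nutlin-3 and 0.840% to 0.864% in Control. Among rows with a symbol, the share called higher was 33.0% for a start-to-end distance under 5 kb and 36.9% for 5 to 20 kb, and it was 22.7% for 50 to 150 kb and 17.3% for 150 kb and more. The share called lower ran from 23.3% under 5 kb to 36.5% for 150 kb and more. The share called higher was also smaller at 150 kb and more than under 5 kb with the same total (182 of 1513 rows against 387 of 1450) and under quantile normalization (397 against 573). Which direction was the more frequent within a class changed with the scaling: with the same total more rows fell than rose in every span class, and under quantile normalization more rose in all but that of 150 kb and more. For rows without a symbol falls outnumbered rises under both. MALAT1 held 0.0279% to 0.0421% of reads in B87+DMKG and 0.0082% to 0.0138% with Nutlin-3. What part RNA quality, the nuclear share of the RNA or depth has in this pattern was not tested.

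**Figure D5:**
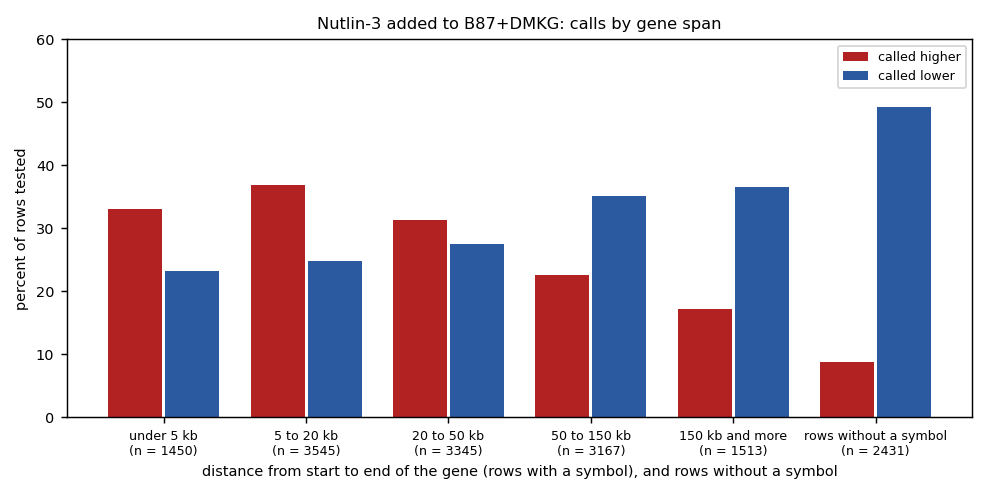
Bars give the percent of rows tested that were called higher (red) or lower (blue) when Nutlin-3 was added to B87+DMKG, by the distance from start to end of the gene and, at the right, for rows without a symbol. The red bar is the taller one in the 3 shorter classes (not with the same total), and the blue bar is the taller one from 50 kb upward (not at 50 to 150 kb under quantile normalization) and, at 49.3% against 8.80%, for rows without a symbol.

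Cell cycle genes did not move in 1 direction, and of all rows 26.5% were called higher and 32.3% lower. Of 24 mitosis genes 11 rose and 8 fell (7 and 9 with the same total, where the median of 0.11 changed sign). The number that fell was 5 without B87+DMKG replicate 1, 5 without replicate 2 and 5 without both. CCNB1, the mitotic cyclin, rose from the range 10323 to 11696 to the range 15961 to 16861 (0.59 ± 0.07), whereas MKI67, the proliferation marker, went from 64269, 69372, 49692 and 49092 to 23538, 27049, 23379.8 and 26244 (-1.20 ± 0.14), back to the Control range of 20944 to 29741. The mitotic kinase PLK1 (-0.79 ± 0.09) and the kinesins CENPE (-0.97 ± 0.20) and KIF23 (-1.23 ± 0.10) fell. Of 27 DNA replication genes 7 rose and 10 fell (4 and 14 with the same total), near the shares of all rows. The licensing factor CDT1 (0.97 ± 0.13) and the helicase subunit MCM2 (0.49 ± 0.09) rose. The clamp loader RFC4 (-1.25 ± 0.08), polymerase POLE (-0.89 ± 0.10) and the transcription factor E2F2 (-1.01 ± 0.11) fell. Without B87+DMKG, Nutlin-3 lowered 21 of the 27 replication genes and raised 2, and the effect was called higher on B87+DMKG in 16. Ribosome biogenesis genes fell in 10 of 19 cases and rose in 5 (11 and 2 with the same total; 8 and 3 without B87+DMKG replicates 1 and 2), with UBTF, the RNA polymerase I factor (-0.61 ± 0.06), and NOP58, a nucleolar protein (-0.79 ± 0.11), lower and BOP1 (0.76 ± 0.16) higher.

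Rita, a small molecule reported to bind p53 itself and to keep MDM2 from it, was given with B87+DMKG at 50 µM, another dose than the 30 µM of Nutlin-3, so the values are set side by side. Between these triple treatments 7856 rows were called (48.3%), 3875 higher (23.8%) and 3981 lower (24.5%) with Nutlin-3. The share higher was 49.3% and became 58.9% with the same total and 54.8% under quantile normalization. MDM2 was 12768 to 15651 with Nutlin-3 and 7154 to 8161 with Rita, CDKN1A 43372 to 51535 and 32238 to 34338, and BBC3 1199.6 to 1585 and 1316 to 1647. PMAIP1 was 1544 to 1847 with Nutlin-3 and 11769 to 12638 with Rita, and ASNS 6089 to 6459.5 and 15363 to 17129. DDIT4 was 439327 to 508204 with Nutlin-3 and 51153 to 58165 with Rita, both above the Control range. CUL3 was 127 to 155 with Nutlin-3 and 2614 to 2881 with Rita, and the Notch feedback gene NRARP was 36.1 to 70.2 and 1109.6 to 1298. CHAC1 stood above the B87+DMKG libraries with either inhibitor, at 2813 to 3330.5 with Nutlin-3 and 5674 to 5804 with Rita.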

How the data were processed

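Per the labels' protocols, RNA of H460 cells was extracted with a Qiagen RNeasy Plus Micro kit and made into TruSeq stranded mRNA libraries. The tools named, per the submitters' processing notes, are STAR 2.4.0, SAMtools, Picard, FastQC and DESeq2. Whether counting used strand is not given in the sources used here. Those notes list mm10, whereas the file header names hg19 and the genes are human. The deposited signal values are read counts that the authors normalized per library, in 74834 rows and 31 columns. In each library the values above 0 (690132 in all) are whole multiples of a single step (100% to within 0.1 of it), from which 33.4 M to 82.5 M whole reads a library were recovered. Of recovered counts under 1000, 55.8% to 59.2% were even, so 1 count may be 1 end of a pair. Count models therefore served only as alternatives.

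Rows with a mean of at least 10 (16259) were tested with limma 3.58.1 in R 4.3.3 (trend, all 31 samples in 1 fit by group, pseudocount 1, no replicate block; 23 residual degrees of freedom). On simulated data for this comparison (16259 rows) 67 rows were changed 1.5-fold, 67 were changed 2-fold and 66 were changed 4-fold. The share recovered was 49.3% at 1.5-fold, 71.6% at 2-fold and 93.9% at 4-fold, and 13 unchanged rows were called. In the data 58.9% of rows were called, far more than were changed in the simulation. The simulated rates therefore do not give the power or the share of false calls of this comparison. Other settings tried were no filter, a minimum mean of 50, pseudocounts of 0.5 and 5, equal library totals, quantile normalization, only the groups compared, a replicate block, rows naming 1 gene, 1 library left out, DESeq2 1.42.0 or edgeR 4.0.16 run on the recovered reads, and a change of at least 1. Leaving out B87+DMKG libraries 1 and 2, or 3 and 4, was added after seeing the data.

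Members and lists were chosen with earlier results of these data known. Genes named are the 12 largest rises and 12 largest falls (called, mean of at least 50, groups apart), the 5 most changed among called members of each list, a fixed set, and the 6 largest in each direction of the difference of Nutlin-3 effects and of the triple treatments; the text prints a selection, and some genes are not reported here. Keratins, promoters and gene classes by span or name were chosen after values were seen. Promoters of immediate early or p53 genes had been planned, but EGR1 was picked among these genes for its values.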

Additional observations from a re-analysis of the deposited data

Results flagged for a closer look

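Of 98 groups of 4 libraries tested, over the largest rises and falls, the genes always named and the library measures, 4 had a library apart from the other 3 by Dixon's ratio, and chance gives about 1 in 20. FOSB was highest in B87+DMKG replicate 4 (766, against 535, 548, 545 and 766 over the 4 replicates). DDIT3 was highest in B87+DMKG+Nutlin-3 replicate 3 (369.5). LDHA was lowest in B87+DMKG+Nutlin-3 replicate 2 (139892, against 149783, 139892, 151177 and 150704 over the 4 replicates), and ZNF469 was highest there (380.3).

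The effect of Nutlin-3 differed with and without B87+DMKG, by the test of the difference in limma, most widely in 12 genes. It was higher on B87+DMKG in CHAC1 (5.06, adjusted p = 3.1e-09), ELF3 (4.11, 6.4e-06), DDIT4 (4.09, 1.7e-16), LINC01433 (3.94, 0.00127), ATOH8 (3.90, 2.3e-11) and SAMD11 (3.79, 6.5e-08). It was lower in MT1F (-4.71, adjusted p = 1.3e-05), LHX4-AS1 (-5.06, 2.6e-12), FAM229A (-5.08, 1.4e-10), GOLGA8R (-5.32, 0.0125), LINC01002 (-5.86, 0.0063) and MT1G (-7.01, 5.8e-06). ATOH8 moved in opposite directions, -1.24 ± 0.23 without and 2.66 ± 0.21 with B87+DMKG, with no overlap in the latter comparison. LINC01002 was listed at 0 in Control replicate 3 and B87+DMKG+Nutlin-3 replicate 3. It was 136 to 186 in B87+DMKG. Its fall on B87+DMKG (-2.81 ± 1.22, adjusted p = 0.0474) lost its call without that library with Nutlin-3 (-1.32, 0.324) and under other settings.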

How the results depend on the processing

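Of the alternative counts of called rows in the 6 comparisons 126 were within 1.5 times the reported one. The other 6 required a change of at least 1, which left 2973 rows for Nutlin-3 added to B87+DMKG, 1223 for Nutlin-3 without it, 4456 for the difference of effects, 3391 for B87+DMKG against Control, 2867 for B87+DMKG+Nutlin-3 against Control and 2806 between the triple treatments. The 9570 calls became 8872 to 9623 when 1 library was left out, 8315 with only the groups compared, 10779 with no filter, 9694 with edgeR and 9868 with DESeq2. With the replicate block there were 9480. Same-numbered libraries of both groups did not deviate together (r = -0.05, 0.03, 0.18 and -0.13), so the numbers were not taken as pairs.

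Of 511 genes with a value, 11 changed direction under a scaling. Under quantile normalization these were CALR (-0.15), CANX (-0.12), DUSP10 (0.52), GAPDH (-0.0294), NPM1 (-0.15), PGAM1 (-0.0220), PGD (-0.10), RND3 (0.0235) and TKT (-0.0262), and with the same total NOP56 (-0.0011) and WARS (-0.13). The cause was not tested. Calls were lost in at least 1 setting by 112 genes and gained by 61, and 333 kept call and direction in all settings. Without B87+DMKG replicates 1 and 2, list counts higher and lower were 11 and 1 of 16 for p53 feedback and arrest, 22 and 0 of 27 for the integrated stress response, 17 and 1 of 24 for hypoxia and 15 and 1 of 22 for glycolysis. Depth limits genes under about 10 normalized reads, such as CA9.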

Other observations

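Genes of protein synthesis and turnover, grouped by symbol after their values were seen, leaned upward when Nutlin-3 was added to B87+DMKG, beside 26.5% of all rows called higher and 32.3% lower. Of 36 rows for proteins of the large cytosolic ribosomal subunit 22 rose and none fell, with a median log2 fold change of 0.36. Of 27 rows for the small subunit 21 rose and 1 fell (median 0.46). Mitochondrial ribosomal proteins rose in 43 of 72 rows and fell in 4 (median 0.28), and proteasome subunits rose in 24 of 38 and fell in 7 (median 0.34). With B87+DMKG alone against Control, which shares libraries, the proteasome rows had a median of -0.30, with 24 lower and 5 higher. Under quantile normalization 17 rose and 7 fell in the large subunit (median 0.09) and 16 and 2 in the small subunit, and with the same total 21 and 2, and 18 and 2. The mitochondrial ribosome and proteasome rows also had more rises than falls under both. Many ribosomal protein genes have near-identical processed copies, so their reads can be shared.

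Long intergenic RNA genes (symbols starting with LINC) rose in 14 of 150 rows (9.33%) and antisense genes in 35 of 345 (10.1%), below the 26.5% of all rows, while their falls, 50 (33.3%) and 100 (29.0%), were near the 32.3% of all rows. Under quantile normalization 37 rose and 39 fell among the former and 93 rose and 58 fell among the latter, so their direction rests on the scaling. Of 14 rows of the duplicated GOLGA8 and HERC2P families 12 fell and none rose, with a median of -2.01 (11 fell under quantile normalization and 12 with the same total). Zinc finger genes had 122 of 394 rows higher and 113 lower (92 and 130 with the same total, 178 and 88 under quantile normalization).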
